A study of Mus musculus with 4 samples.

Results

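The Ifitm family of interferon-induced transmembrane proteins was followed through single cells of the proximal lower incisor of mice at postnatal day 15. Its members here are the 5 genes Ifitm1, Ifitm2, Ifitm3, Ifitm5 and Ifitm10, taken by symbol from the 32285 genes of the deposited matrices. The files hold 7 genes with Ifitm in the symbol, and Ifitm6 and Ifitm7 were left out of the membership. The family was picked with earlier results of these data known, among them its use by pulp and odontoblast lineages and its interferon-like differences between genotypes. Levels by lineage are therefore given as a description, and the genotype tests are no independent support for that choice.

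IFITM proteins are small membrane proteins that hinder the fusion of enveloped viruses with the cell membrane. Ifitm1, Ifitm2 and Ifitm3 belong to the antiviral branch, which interferon can switch on, although many cells also express these genes without interferon. Ifitm5, also named BRIL, is a protein of bone-forming cells and is not regarded as an interferon target, and mutations of its human counterpart cause osteogenesis imperfecta type V. The function of Ifitm10 is little known. In the mouse incisor, which grows throughout life, mesenchymal cells at the proximal end replenish the dental pulp and the odontoblasts, the cells that lay down dentin, while the dental follicle surrounds the tooth.

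The study compared WT with Din-KO mice, which carry a knockout allele of Din (4930453N24Rik, listed as din) with an exon deleted and a LacZ reporter in place. Each genotype gave 2 libraries of dissociated proximal tissue, numbered 1 and 2, and the number of mice in a library, their strain and their sex are not given in the sources used here. Nothing in the labels says that the libraries of a genotype came from separate animals or cultures, so that p-values measure only the spread between these libraries, which may be technical. Where the counted 3′ reads of din lie relative to the deleted exon was not examined, so its level was not used to check the genotype. In mesenchyme-like cells din stood at 36.3 and 28.5 CPM in the WT libraries and 22.9 and 28.3 CPM in the Din-KO libraries, where CPM are counts of UMIs (unique molecular identifiers, 1 per captured transcript) per 1e6 UMIs summed over the cells of a class in a library. It was at 21.6 and 16.7 CPM in WT and 7.48 and 5.46 CPM in Din-KO macrophage-like cells (log2 fold change -1.43, SE 0.39, edgeR adjusted p = 0.795), and 29.2 and 24.5 against 2.62 and 9.93 CPM in B-like cells, where the Din-KO values rest on 1 and 5 UMIs. The estimate of din was below 0 in all 8 classes tested, and none was called.

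After the study's cell filters, 11310 of 20502 barcodes remained, between 1272 and 4575 per library, with median depths of 8016 to 11587.5 UMIs per cell. Only 11 barcodes were shared by any pair of libraries. The libraries resembled each other by number more than by genotype, with a Pearson r across genes of 0.984 between the number 1 libraries and 0.977 between the number 2 libraries, against 0.931 for the WT pair and 0.941 for the Din-KO pair. Odontoblast-like cells differed with the number as well. Dspp, which encodes a dentin matrix protein, was at 35.2 and 122 CPM in cluster 11 of the number 1 libraries (WT, Din-KO) and at 1702 and 1149.9 CPM in the number 2 libraries. The sex make-up moved with genotype. Cells with Xist and without Y-linked transcripts were 98.3% and 95.2% of mesenchyme-like cells in the WT libraries and 35.9% and 45.1% in the Din-KO libraries. Cells were clustered without the Ifitm and interferon genes, and classes were named "-like" from marker genes.

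Ifitm1 had 88006 UMIs in the kept cells, Ifitm2 87426, Ifitm3 125891, Ifitm5 3840 and Ifitm10 568. The 5 genes lie on mouse chromosome 7 (GRCm38). In Ifitm5 (ENSMUSG00000025489, chr7:140948958-140950291, minus strand), Ifitm2 (ENSMUSG00000060591, chr7:140954837-140955987, minus strand), Ifitm1 (ENSMUSG00000025491, chr7:140967221-140969825, plus strand) and Ifitm3 (ENSMUSG00000025492, chr7:141009586-141010770, minus strand) the family forms a compact cluster. Ifitm10 (ENSMUSG00000045777, chr7:142325837-142373753, minus strand) lies apart from it. Near-identical sequence can limit what 3′ counting separates where both genes are counted. Of the 50-base words in the last 400 transcript bases, 25.4% for Ifitm2, 24.8% for Ifitm5, 12.3% for Ifitm3, 1.99% for Ifitm1 and 0% for Ifitm10 also occur in another annotated gene. Within the family only Ifitm3 and Ifitm1 shared such words, 4.27% of those of Ifitm3. For Ifitm5 all of the shared words belong to Gm45717, an annotated gene that overlaps Ifitm5 and Ifitm2 and is not a row of the files. Whether the other sharing genes outside the family are rows was not examined, so the shares alone do not show a loss of counts.

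Bases before the RefSeq starts of 4 members are shown as the windows that were searched for interferon-type motifs. They were read from the RefSeq promoter windows of GRCm38.p6 (250 bases before to 50 after a RefSeq start) and are printed 5′ to 3′ on the gene's own strand up to the first base annotated as UTR. The window of Ifitm1 lies inside the annotated gene, near the starts of its shorter transcripts, and the start of the longest transcript at 140967221 was not searched. Capitals mark matches to the core of the interferon-stimulated response element (2 copies of GAAA with any 2 bases between them, searched on both strands).

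Ifitm1, chr7:140967826-140968027, plus strand: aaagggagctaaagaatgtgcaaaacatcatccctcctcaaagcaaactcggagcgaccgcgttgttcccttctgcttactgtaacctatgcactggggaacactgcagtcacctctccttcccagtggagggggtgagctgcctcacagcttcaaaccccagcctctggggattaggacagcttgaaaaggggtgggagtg
Ifitm2, chr7:140955988-140956211, minus strand: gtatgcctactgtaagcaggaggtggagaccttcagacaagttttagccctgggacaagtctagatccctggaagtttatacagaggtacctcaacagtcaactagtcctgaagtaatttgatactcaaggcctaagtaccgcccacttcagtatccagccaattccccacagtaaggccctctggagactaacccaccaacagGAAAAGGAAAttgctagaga
Ifitm3, chr7:141010771-141010994, minus strand: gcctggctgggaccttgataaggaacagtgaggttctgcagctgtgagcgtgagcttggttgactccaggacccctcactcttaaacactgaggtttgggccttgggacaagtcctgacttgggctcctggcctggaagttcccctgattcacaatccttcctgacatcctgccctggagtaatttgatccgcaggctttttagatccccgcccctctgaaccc
Ifitm5, chr7:140950292-140950493, minus strand: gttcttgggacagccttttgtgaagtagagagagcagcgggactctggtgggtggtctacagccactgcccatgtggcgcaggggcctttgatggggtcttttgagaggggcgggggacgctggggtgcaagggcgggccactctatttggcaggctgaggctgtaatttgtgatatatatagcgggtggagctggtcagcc

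Ifitm2 held 1 match, at positions -46 to -37 from the RefSeq start. Ifitm3 had none in the printed stretch, but just past its start, at positions 3 to 29, it held 2 matches with a gamma-activated site core (TTCNNNGAA) between them that overlaps the second, all in capitals in this stretch:

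Ifitm3 site, chr7:141010716-141010742, minus strand: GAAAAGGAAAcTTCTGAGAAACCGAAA

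The window of Ifitm1 at that internal start and the windows of Ifitm5 and Ifitm10 held neither motif. Of 32851 promoter windows of the same length, 3.44% held the response element core and 8.30% the gamma-activated site core, and by gene the shares were 3.99% and 9.55% of 27025. The response element core was present for 13 of 26 matched genes of the type I interferon list used below and for 9 of 18 of the interferon-gamma list. The gamma-activated site core was present for 5 of 26 and 5 of 18. A match is a description of letters, and no binding was measured.

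Ifitm1 marked part of the dental pulp. Among the 7 classes that share no cells and had at least 20 cells in every library, to which the class orders given for all members are limited, its level was 1986 ± 998 CPM (SD, n = 4 libraries) in pulp-like cells, 17.8 times that of the next of them, the odontoblast-like cells at 112 ± 45.0 CPM. The rest of the 7 were lower: macrophage-like 98.0 ± 62.0, endothelium-like 71.7 ± 33.5, follicle-like 63.3 ± 31.7, B-like 52.7 ± 58.0 and epithelium-like 16.8 ± 15.0 CPM. The lowest pulp-like library, at 650.4 CPM, was above every library of every other of these classes, while the classes after pulp overlapped their neighbours. Among classes with fewer cells, neutrophil-like cells had 334 ± 306, erythroid-like cells 265 ± 182 and perivascular-like cells 146 ± 94.3 CPM, and a neutrophil-like library at 792 CPM, from 32 cells, was above the lowest pulp-like library. The 7 classes leave out the mesenchyme-like clusters without a sub-class name. Among these, cluster 7 had 2105 ± 1764, cluster 1 575 ± 248, cluster 8 320 ± 107 and cluster 17 129 ± 117 CPM of Ifitm1. Cluster 16 had 729 ± 555 CPM, with 4 cells in its smallest library. The step of 17.8 times thus holds only among the named classes. Mesenchyme-like cells held 95% of all Ifitm1 UMIs in the kept cells.

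**Figure D1:**
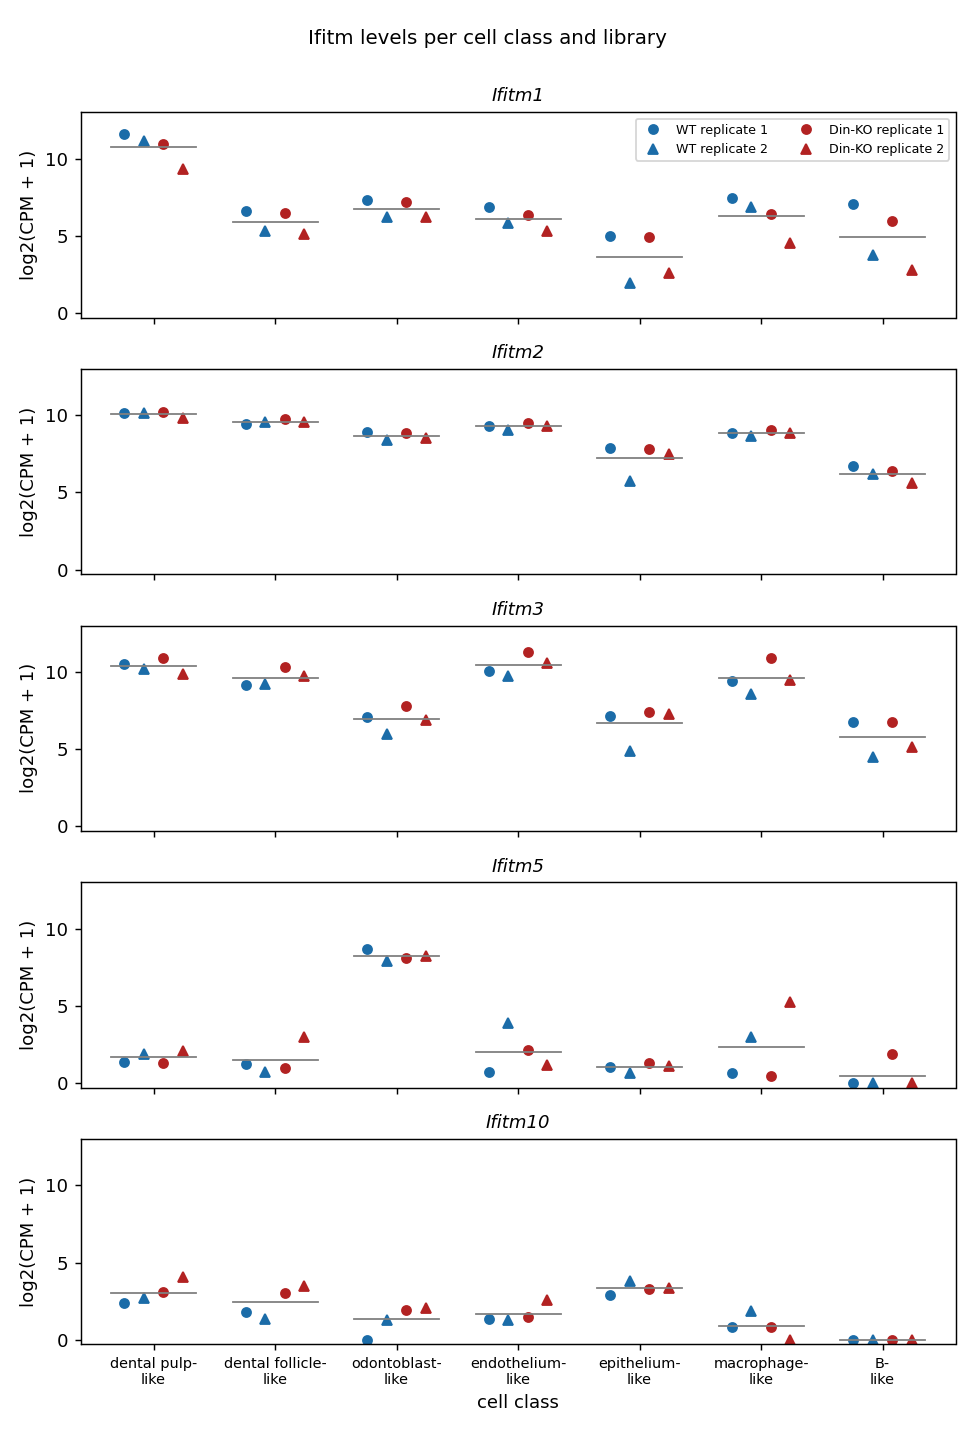
Level of each Ifitm member by cell class, as log2(CPM + 1) on the y axis, with 1 panel per gene and the classes on the x axis. Points are the 4 libraries (blue WT, red Din-KO, circles number 1, triangles number 2) and the grey bar is the mean of the 4 log2 values; Ifitm1 is highest in dental pulp-like cells, Ifitm5 in odontoblast-like cells, and Ifitm2 and Ifitm3 are spread over several classes.

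Within the pulp-like class the level of Ifitm1 depended on the cluster. Cluster 0, led by Cldn10 and Ifitm1, stood at 3816 and 4005 CPM in the WT libraries against 2816 and 1915 CPM in the Din-KO libraries. Cluster 2, led by Smoc2, stood at 311 and 13.9 CPM in WT and 367 and 48.5 CPM in Din-KO. All 4 libraries thus had Ifitm1 far higher in cluster 0 than in cluster 2. Cluster 5 lay between, at 2658, 1334, 2542 and 1512 CPM (WT replicates 1 and 2, Din-KO replicates 1 and 2), although it rests on 10 cells in each number 2 library. Cluster 2 was called pulp-like from pulp markers among its leading genes, but it scored higher on the follicle markers and received no sub-class name in other clusterings. Outside the named sub-classes, cluster 7, whose leading gene was Ifitm1 itself, had 4220 and 460 CPM in WT and 2879 and 860.1 CPM in Din-KO.

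**Figure D2:**
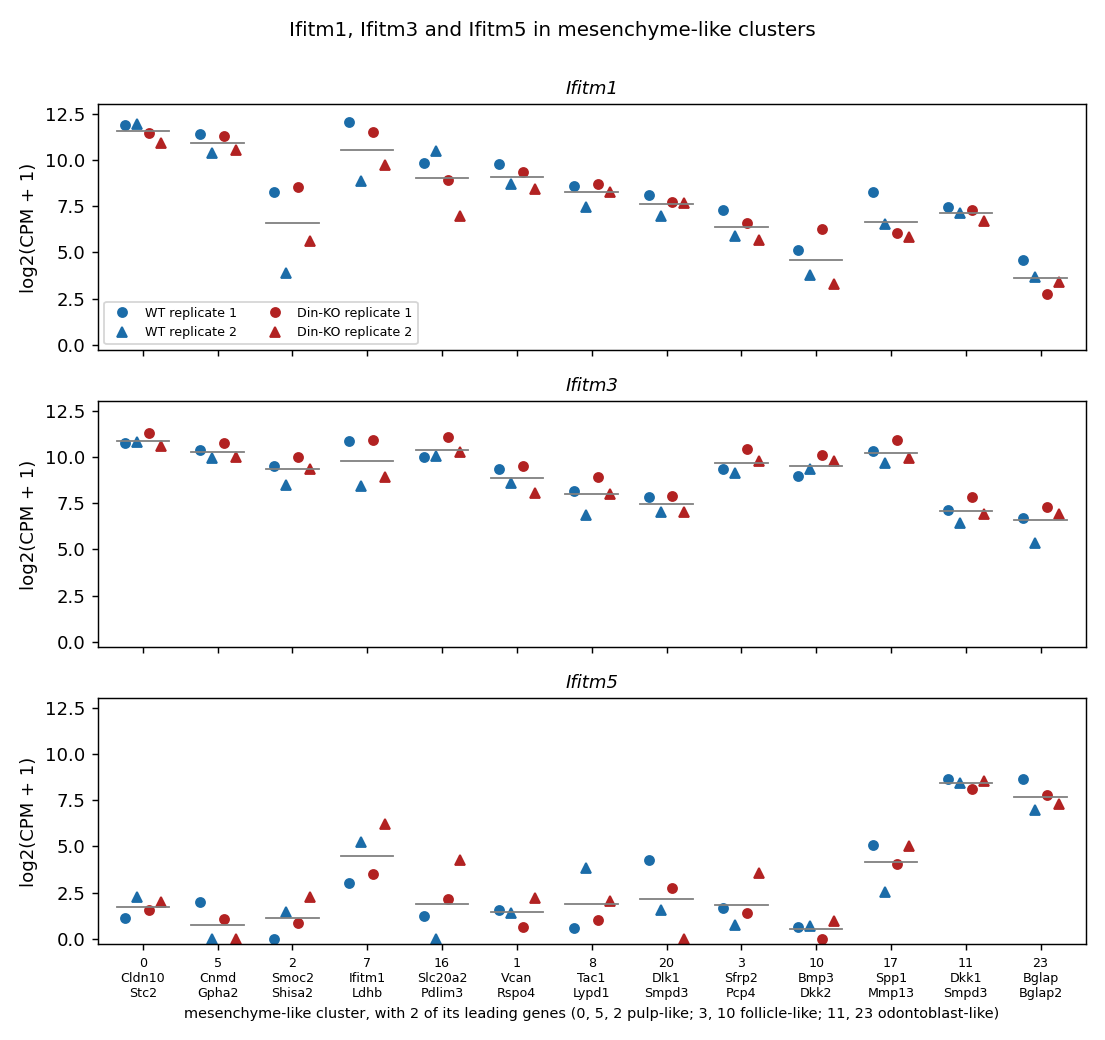
Level of Ifitm1, Ifitm3 and Ifitm5 by mesenchyme-like cluster, as log2(CPM + 1) on the y axis, with clusters on the x axis under 2 of their leading genes. Points are libraries, coloured and shaped by genotype and number, and the grey bar is the mean of their log2 values; Ifitm1 is near 3816 CPM in cluster 0 and 311 CPM in cluster 2 of WT replicate 1, and Ifitm5 stands out in clusters 11 and 23.

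The genes whose profile over classes was most like that of Ifitm1 were Dok6 (Pearson r = 0.87), Fmod, a collagen-binding proteoglycan (0.85), Stc2, a secreted glycoprotein (0.83), Ppp2r2b (0.79) and Ptgis, the prostacyclin synthase (0.77). These values describe log2(CPM + 1) over 42 sums of cells by class and library from 13 classes, ranked among 9701 genes. The sums share libraries, so the correlations carry no test.

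Ifitm2 was the member spread most evenly over the mesenchyme. It was at 1096 ± 129 CPM in pulp-like, 759 ± 70.6 in follicle-like, 632 ± 83.7 in endothelium-like, 460.2 ± 44.7 in macrophage-like and 411 ± 72.9 in odontoblast-like cells. Epithelium-like and B-like cells were lowest, at 174 ± 83.9 and 76.5 ± 23.5 CPM. Pulp-like cells lay above follicle-like cells in all 4 libraries, whereas macrophage-like and odontoblast-like cells overlapped. Its closest profiles were those of Rgs3, a regulator of G protein signalling (r = 0.89), App, the amyloid precursor (0.85), Cd302 (0.85), Faap20 (0.85) and Acadsb (0.84).

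Ifitm3, the most studied antiviral member, was as high outside the dental mesenchyme as within it. Endothelium-like cells had 1517 ± 756 CPM, pulp-like 1369.6 ± 416, macrophage-like 913 ± 659 and follicle-like 826 ± 317 CPM, and the libraries of these neighbours overlapped. Odontoblast-like cells at 134 ± 63.9, epithelium-like at 125 ± 65.4 and B-like at 66.6 ± 45.3 CPM formed a low group whose libraries lay below those of the other 4 classes. The nearest profiles were Rsu1 (r = 0.91), Ifitm2 (0.83), Cmtm3 (0.83), App (0.83) and Isg15 (0.82), the last a ubiquitin-like protein made in response to interferon. Ifitm1 and Ifitm3 resembled each other less, with r = 0.46.

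Ifitm5 belonged to odontoblast-like cells, at 299.8 ± 71.8 CPM and 26.5 times the next of the 7 classes. That step holds only among the named classes, since cluster 7, without a sub-class name, had 31.8 ± 30.6 CPM with 17 cells in its smallest library. The odontoblast-like libraries were at 401 and 235 CPM in WT and 268 and 295 CPM in Din-KO. Of all Ifitm5 UMIs 96.8% fell in mesenchyme-like cells. Cluster 11, the larger odontoblast-like cluster with Dmp1, a mineralization protein, had 402 and 350.0 CPM in WT and 274 and 364 CPM in Din-KO. Cluster 23, the Bglap-rich and most Dspp-rich cluster, had 396 and 122 CPM in WT and 218 and 154 CPM in Din-KO, the number 1 values resting on 9 and 16 cells. In the number 2 libraries, where both clusters held at least 44 cells, cluster 11 was thus above cluster 23 in either genotype. On marker scores cluster 23 was higher for osteoblast (1.96) than for odontoblast (1.59), and Dspp among its leading genes decided its name. Cluster 11 scored 1.93 for odontoblast and 0.9 for osteoblast. Cluster 17, led by Spp1 and Mmp13 and rich in Ibsp, a bone matrix gene, at 7307 and 5529.6 CPM in WT and 5798 and 2021 CPM in Din-KO, had only 32.4, 4.8, 15.3 and 32.1 CPM of Ifitm5 (WT replicates 1 and 2, Din-KO replicates 1 and 2).

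The genes most like Ifitm5 were Dkk1 (r = 0.91) and Notum (0.90), both secreted Wnt inhibitors, with Ism1 (0.90), Col24a1, a fibrillar collagen (0.90), and Aspscr1 (0.89). Notum is also among the markers used to name odontoblast-like cells. Macrophage-like cells were listed second for Ifitm5 at 11.3 ± 17.6 CPM, but 2 of their libraries held under 1 CPM, and cluster 24 of Din-KO replicate 2 reached 244 CPM on 5 cells.

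The contrast between pulp and odontoblast thus ran in opposite directions within the family. The log2 ratio of odontoblast-like to pulp-like levels was -4.04 ± 0.73 for Ifitm1, -1.43 ± 0.22 for Ifitm2 and -3.44 ± 0.56 for Ifitm3 (SD, n = 4 libraries), and 7.12 ± 0.78 for Ifitm5. For Ifitm1 it was -4.27, -4.91, -3.81 and -3.18 in WT replicates 1 and 2 and Din-KO replicates 1 and 2. The ratio of Ifitm5 rests on only 4 to 16 pulp-like UMIs per library. All 4 members kept their sign in every library. With each cell assigned from its own marker UMIs instead of by cluster, the ratios were -2.74, -1.18 and -2.56 for Ifitm1, Ifitm2 and Ifitm3.

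Ifitm10 was near the limit of counting. It stood at 9.25 ± 2.7 CPM in epithelium-like, 8.21 ± 5.2 in pulp-like and 5.32 ± 4.0 in follicle-like cells, and its libraries overlapped between these classes. In odontoblast-like cells WT replicate 1 had 0 UMIs, and B-like cells had 0 UMIs in all 4 libraries. Its best-matched profiles were weaker than those of the other members, led by Cnksr2 (r = 0.72) and Pthlh, the parathyroid hormone-related protein (0.71), followed by Mpped2 (0.71), Tmco3 (0.69) and Kcnj2 (0.69).

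Free RNA in the droplets was not removed. The order of the libraries in Ifitm1 was the same in B-like as in mesenchyme-like cells. Ifitm1 in B-like cells was at 132 and 12.7 CPM in WT and 60.3 and 6.0 CPM in Din-KO, while in mesenchyme-like cells it was at 1751 and 298 CPM in WT and 969 and 160.2 CPM in Din-KO. Cldn10, a pulp marker, was at 50.6 and 14.0 CPM in WT and 26.7 and 12.8 CPM in Din-KO macrophage-like cells. Both genes were thus highest in WT replicate 1 in these classes. Other classes had another order. In macrophage-like cells Ifitm1 was higher in WT replicate 2 (115 CPM) than in Din-KO replicate 1 (84.5 CPM), unlike in mesenchyme-like cells. Neutrophil-like cells had 194 ± 20.1 CPM in WT and 474 ± 449 CPM in Din-KO (SD, n = 2 libraries). The part of free RNA in the differences of macrophage-like and B-like cells was not tested.

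The second question was whether the members differed between Din-KO and WT cells of the same class. UMIs were summed per library and class, and 2 libraries were compared with 2 by the quasi-likelihood test of edgeR, its p-values adjusted by Benjamini-Hochberg over all genes tested. Of 40 member and class pairs, 32 could be tested and 8 were too low. None passed an adjusted p of 0.05, each with an adjusted p of 1.00, and 4 had an unadjusted p under 0.05. This fit did not use the library number, and with the number as a replicate block Ifitm1 passed in mesenchyme-, pulp- and macrophage-like cells and Ifitm3 in endothelium- and macrophage-like cells. In that fit 160 of 15281 genes were called in mesenchyme-like, 416 of 12454 in pulp-like, 164 of 10986 in macrophage-like and 108 of 11194 in endothelium-like cells. The block fits a further term to the same 4 libraries, so its p-values rest on less spread. For a single value, the smallest two-sided p that exact permutation of these 4 libraries allows is 0.333. Sums of a class alone cannot tell fewer expressing cells from less RNA per cell. Over the 4 libraries, 98.01% to 100% of cluster 0 cells had an Ifitm1 UMI. For Ifitm3 it was 94.98% to 99.1% of endothelium-like cells. Thinned to 2000 UMIs per cell, these ranges were 69.2% to 96.3% and 75.2% to 96.2%. Unthinned shares ranged more widely for Ifitm1 in all pulp-like cells (45.1% to 94.3%) and Ifitm3 in macrophage-like cells (76.99% to 97.5%). The part of these shares in the genotype differences was not tested.

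**Figure D3:**
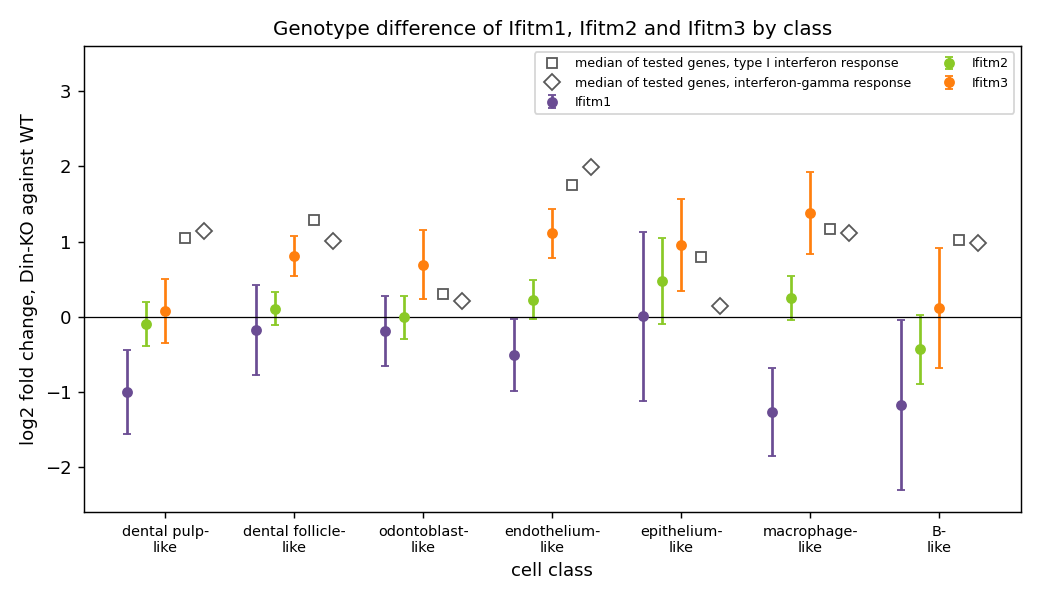
Log2 fold change of Ifitm1, Ifitm2 and Ifitm3, Din-KO against WT, on the y axis for each cell class on the x axis. Filled points are edgeR estimates with their standard errors, open squares and diamonds are medians of the tested genes of the type I interferon and interferon-gamma lists, and values above 0 are higher in Din-KO; Ifitm3 reaches 1.38 in macrophage-like cells and Ifitm1 falls to -1.27 there, and no value passed the adjusted threshold.

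Ifitm3 had estimates above 0 in all 7 classes that share no cells, and the 2 Din-KO libraries lay above the 2 WT libraries in 4 of them. These classes come from the same 4 libraries and are not separate evidence of a direction. In endothelium-like cells the WT libraries had 1086 and 862 CPM and the Din-KO libraries 2564 and 1558 CPM. The groups did not overlap, as for 11.4% of the genes tested there, and the log2 fold change was 1.11 (SE 0.33, edgeR unadjusted p = 0.013, adjusted p = 1.00). Of those genes 0.0536% were called in either direction. The estimate ± 2 SE, the interval used throughout, ran from 0.45 to 1.77.

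In macrophage-like cells Ifitm3 was at 669 and 384 CPM in WT and 1876 and 721 CPM in Din-KO. Again the groups did not overlap (9.38% of genes tested; 0.0728% called), with a log2 fold change of 1.38 (SE 0.55, edgeR unadjusted p = 0.0374, adjusted p = 1.00). In follicle-like cells it was at 578 and 598 CPM in WT and 1258 and 871 CPM in Din-KO. The lowest Din-KO library was above both WT libraries (15% of genes tested; 0% called), and the log2 fold change was 0.81 (SE 0.27, edgeR unadjusted p = 0.0246, adjusted p = 1.00). Both follicle-like clusters showed the same order of groups, cluster 3 at 657 and 565 against 1379 and 874 CPM and cluster 10 at 499.9 and 642 against 1086 and 867 CPM. With only cells that carry Xist and no Y-linked transcript, the follicle-like estimate was 0.76 (adjusted p = 1.00 in edgeR).

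Epithelium-like cells had Ifitm3 at 143 and 28.8 CPM in WT and 172 and 157 CPM in Din-KO, without overlap (17.8% of genes tested; 0% called), and the log2 fold change was 0.95 (SE 0.61). In odontoblast-like cells it was at 137 and 62.6 CPM in WT and 217 and 119 CPM in Din-KO, where the groups overlapped although each Din-KO library exceeded the WT library of its number. The log2 fold change there was 0.69 (SE 0.46; 0% of genes called).

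B-like cells overlapped in Ifitm3 too, and 9.35% of genes tested there had each Din-KO library above each WT library. In pulp-like cells Ifitm3 was at 1495 and 1169 CPM in WT against 1887 and 927 CPM in Din-KO, with overlap, higher in the number 1 pair and lower in the number 2 pair. The log2 fold change was 0.08 (SE 0.42), with an interval of -0.76 to 0.92 that still holds a rise as large as the one measured in follicle-like cells (0% of genes called). The follicle-like minus pulp-like difference in genotype effect was 0.77 (SE 0.27, edgeR unadjusted p = 0.0273, adjusted p = 1.00), and 0% of 13362 genes were called. Against all mesenchyme-like cells, where the Ifitm3 estimate was 0.21 (SE 0.53), the endothelium-like effect was larger by 0.83 (SE 0.25, edgeR unadjusted p = 0.0129, adjusted p = 1.00) and the macrophage-like effect by 1.06 (SE 0.31, edgeR unadjusted p = 0.00582, adjusted p = 1.00), with 0% of genes called in each. The effect of Din-KO on Ifitm3 is thus not shown to differ between these classes.

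Ifitm1 lay mostly on the other side of 0. Its estimates were negative in 6 of 7 classes, and in those 6 each Din-KO library was below the WT library of its number. The share of all genes below in both numbered pairs was not counted. All classes come from the same 4 libraries, so the 6 are not separate evidence of a direction. In pulp-like cells it was at 3053 and 2247 CPM in WT and 1994 and 650.4 CPM in Din-KO. Both Din-KO libraries were below both WT libraries, as for 12.4% of genes tested, and the log2 fold change was -1.0 (SE 0.56, interval -2.12 to 0.11, edgeR adjusted p = 1.00). In macrophage-like cells Ifitm1 was at 171 and 115 CPM in WT and 84.5 and 21.9 CPM in Din-KO, without overlap (15.9% of genes tested), at -1.27 (SE 0.59, edgeR adjusted p = 1.00). Within clusters 4 and 6, the larger macrophage-like clusters, the groups overlapped. Cluster 4 had 39.3 ± 21.3 CPM in WT and 25.4 ± 10.3 CPM in Din-KO (SD, n = 2 libraries). Cluster 6 had 59.0 ± 21.7 and 60.1 ± 42.3 CPM. No library exceeded 54.4 CPM in cluster 4 or 90.0 CPM in cluster 6, while the class stood at 171 and 115 CPM in WT. The macrophage-like estimate therefore does not describe these 2 clusters. Cluster 24, the rest of the class, had 57 and 7 cells in WT and 62 and 5 cells in Din-KO. The median depth of its cells was 2.02 times the median of their library. Its part in the estimate was not tested. The other classes overlapped between genotypes for Ifitm1, whereas both Din-KO libraries were below both WT libraries for 7.5% of genes tested in follicle-like, 6.57% in odontoblast-like, 13.3% in endothelium-like, 3.32% in epithelium-like and 12.8% in B-like cells. In all mesenchyme-like cells, where 6.37% of genes were separated in this way, the groups overlapped as well. The estimate there was -0.89 (SE 1.19; 0% called), and the WT libraries alone lay further apart than the genotype means.

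The make-up of the pulp-like class moved with its Ifitm1 level. Cluster 2, the low one, was 15.1% and 34.4% of pulp-like cells in WT and 42.0% and 64.7% in Din-KO, and cluster 0, the high one, was 57.5% and 58.0% in WT and 38.5% and 25.5% in Din-KO. Within cluster 0 the Din-KO libraries were below the WT libraries, at 2816 and 1915 against 3816 and 4005 CPM. The number 2 libraries there held 76 WT and 26 Din-KO cells, and the share of all genes separated in this way was not counted by cluster. Within clusters 5 and 2 the groups overlapped. Cluster 2 had 162 ± 210 CPM in WT and 208 ± 225 CPM in Din-KO (SD, n = 2 libraries), and each Din-KO library there exceeded the WT library of its number. The part of the make-up in the pulp-like estimate of Ifitm1 was not tested. Where cluster 2 cells were not counted as pulp-like, with interferon genes allowed in clustering or at a resolution of 0.5, the log2 fold change was -0.61 and -0.76. With cells chosen one by one it was -0.61, and with only Xist cells -0.69, all with an edgeR adjusted p of 1.00.

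Ifitm2 had estimates of -0.43 to 0.47 over 7 classes, each smaller than its standard error. Its groups did not overlap in follicle-like cells (15% of genes tested), at 696 and 739 CPM in WT and 860.0 and 740 CPM in Din-KO, nor in macrophage-like cells (9.38%), at 451 and 409 CPM in WT and 517 and 464 CPM in Din-KO, with Din-KO higher in both. In pulp-like cells it was at 1149.7 and 1115 CPM in WT and 1207 and 912 CPM in Din-KO. In odontoblast-like cells it was at 476 and 329.8 CPM in WT and 468 and 369 CPM in Din-KO, with an interval of -0.58 to 0.56 around -0.01. Ifitm5 in odontoblast-like cells had a log2 fold change of -0.23 (SE 0.33, interval -0.88 to 0.42), and its groups overlapped.

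Ifitm10 had its largest estimate in follicle-like cells, 2.09 (SE 0.48, edgeR unadjusted p = 0.00503, adjusted p = 1.00). It had 2.44 and 1.58 CPM in WT, from 9 and 12 UMIs, and 7.17 and 10.1 CPM in Din-KO, from 30 and 53 UMIs. The groups did not overlap (15% of genes tested), and with only Xist cells the estimate was 2.11. In pulp-like cells it was at 4.20 and 5.46 CPM in WT and 7.53 and 15.7 CPM in Din-KO, at 1.2 (SE 0.52), without overlap (11.5% of genes tested). With only Xist cells this was 0.41. In all mesenchyme-like cells Ifitm10 was at 3.33 and 2.32 CPM in WT and 4.76 and 6.68 CPM in Din-KO, again without overlap (11.3% of genes tested), and the estimate was 0.97 (SE 0.39, edgeR adjusted p = 1.00).

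The rest of the interferon response gives the setting of these values. A type I list of 38 genes and an interferon-gamma list of 23 genes were read by count and median, beside the median over all genes, which was between -0.04 and 0.00 in every class. In mesenchyme-like cells 32 genes of the type I list were tested and all 32 estimates were above 0, with a median log2 fold change of 1.38, and for 26 the Din-KO libraries were all above the WT libraries (as for 11.3% of all genes). The interferon-gamma list had 21 genes tested, a median of 0.88 and 13 without overlap. None of either list was called in edgeR (0% of 15281 genes), while 18 genes were lower and 127 higher at an unadjusted p under 0.05 over the whole table.

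Neither list contains a member of the family, and the largest estimates of each were the following. Oas1a, a double-stranded RNA sensor, was at 0.11 and 0.06 CPM in WT and 1.60 and 1.77 CPM in Din-KO mesenchyme-like cells, and Nlrc5, an activator of MHC class I genes, at 0.071 and 0.12 CPM in WT and 1.14 and 1.05 CPM in Din-KO. The WT values of both rest on at most 3 UMIs per library, so that no fold is given. Ifi44 had a log2 fold change of 3.83 (SE 0.69) and Zbp1, a nucleic acid sensor, of 3.43 (SE 0.53). Their WT levels were low too, at 0.32 and 0.55 CPM for Ifi44 and 0.21 and 0.24 CPM for Zbp1, so these folds also rest on few WT UMIs. In the interferon-gamma list Cxcl10, a chemokine that attracts T cells, stood at 3.50 (SE 0.37) and Gbp6, a guanylate-binding protein, at 2.04 (SE 0.60). None of the 6 passed the adjusted threshold in edgeR (adjusted p = 1.00).

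By class, the type I median was 1.75 in endothelium-like, 1.28 in follicle-like, 1.17 in macrophage-like, 1.05 in pulp-like, 1.03 in B-like, 0.80 in epithelium-like and 0.30 in odontoblast-like cells. Ifitm3 was at 0.08 in pulp-like cells, where the median of the list was 1.05, and at 1.11 in endothelium-like cells, where it was 1.75. In the pulp-like sum, cluster 2 was 15.1% and 34.4% of cells in WT and 42.0% and 64.7% in Din-KO. Mean Ifitm3 there was 542 ± 259 CPM in WT and 831 ± 241 in Din-KO (SD, n = 2 libraries). It was 1757 ± 44.6 and 2053 ± 701 CPM in cluster 0, and 1164 ± 265 and 1383 ± 514 CPM in cluster 5, with 10 cells in its smallest library. The groups overlapped in each of these clusters. In cluster 0 the Din-KO libraries were both the lowest, at 1558 CPM, and the highest, at 2549 CPM. The part of this make-up in the pulp-like estimate was not tested. Over both lists 3 genes passed in edgeR, all higher in Din-KO and named after their values were seen. They were the interferon-inducible GTPases Igtp (log2 fold change 3.14, SE 0.30, adjusted p = 0.0451) and Iigp1 (2.82, SE 0.25, adjusted p = 0.0426) in endothelium-like cells, and Oasl1 (2.95, SE 0.29, adjusted p = 0.0316) in macrophage-like cells. In endothelium-like cells 34 type I and 23 interferon-gamma genes were tested, and 6 of all 11194 genes were called. In macrophage-like cells 36 and 23 were tested, and 8 of all 10986 genes were called. In odontoblast-like cells only 4 of 16 tested type I genes lay without overlap above WT (14.7% of all genes did). The list of 13 interferon ligands, receptors and their kinases had 7 genes tested in mesenchyme-like cells, all with estimates below 0 and a median of -0.09. The rest of that list was not tested, so these values do not cover every ligand, receptor and kinase on it. The bone and dentin matrix list, the company of Ifitm5, had a median of -0.33 in odontoblast-like cells, where none of 17 tested genes passed.

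Isg15, chosen after its values were seen, is given as an example beside the members. It was at 42.0 and 17.1 CPM in WT and 201 and 123 CPM in Din-KO pulp-like cells, and at 25.2 and 6.17 against 202 and 104 CPM in follicle-like cells. Endothelium-like cells had 53.3 and 84.2 CPM in WT and 295 and 179 CPM in Din-KO, and odontoblast-like cells 3.06 and 3.90 against 11.9 and 2.54 CPM. Din-KO was above WT in the first 3 classes, as for 11.5%, 15% and 11.4% of genes tested there. The groups overlapped in odontoblast-like cells, and macrophage-, epithelium- and B-like cells are not given here.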

How the data were processed

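Single cells of the proximal lower incisor (2 WT and 2 Din-KO libraries, postnatal day 15) were sequenced with 10x 3′ chemistry. The deposited matrices hold UMI counts, not normalized, from CellRanger 6.0.2 with the mm10 (GRCm38) build, per the labels. No source used here names the annotation release, and 99.6% of the files' identifiers were in GENCODE M21 (GRCm38).

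Following the study, a cell was kept if it had 1000 or more genes, up to 10% of its UMIs mitochondrial and up to 3% from hemoglobin. Seurat 5.3.0 integrated the libraries on 2000 variable genes, regressed out cell cycle scores and formed clusters on 30 principal components (resolution 1), with 73 Ifitm, interferon and sex genes barred. Clusters were named from marker lists where at least 3 markers were detected. Scrublet marked 0.221% of cells, too few for it to have worked, so that no doublets were removed.

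UMIs were summed per library and class and tested in edgeR 4.0.16 (TMM, filter on low counts, quasi-likelihood test, adjusted p of 0.05) without covariates. Differences between classes were fitted with a library block. The test was also run on simulated counts. These did not carry the likeness of the libraries by number, so they do not show how the test behaves with it. Members and lists were chosen with earlier results of these data known. The genes named are the members, din, the 5 genes most like each member, the 3 largest changes of each interferon list, and class markers. Cluster 24, Isg15 beyond that rule, and the clusters singled out were chosen after their values were seen. DESeq2 1.42.0, other cell selections, no filter, thinning to 2000 UMIs and leaving out each library were alternatives. Intervals are the estimate ± 2 standard errors, which with 2 libraries a group is narrower than a 95% interval.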

Additional observations from a re-analysis of the deposited data

How the results depend on the processing

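The members' genotype estimates kept their side of the threshold under most alternatives, and 25 of 30 had no reversal outside leaving out a library. With 2 libraries a group, 13 of 30 had none when a library was left out.

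Genes called, none in 6 classes, were 16, 12, 34, 3, 51, 6, 48 and 4 in DESeq2 (mesenchyme-, pulp-, follicle-, odontoblast-, endothelium-, epithelium-, macrophage- and B-like). Without the filter they were 7, 49, 133, 16, 185, 133 and 27, epithelium-like left out. Pulp-like calls were 3 with Ifitm and interferon genes in clustering, 2 at a resolution of 0.5 and 1 after thinning. Follicle-like calls were 1 after thinning and 1 with Xist cells. Class differences without the filter gave 59, 11 and 58 (follicle- against pulp-like, endothelium- and macrophage-like against mesenchyme-like). Leaving out a library gave 2 to 8, 0 to 3, 4 to 12, 30 to 51, 0 to 97 and 7 to 65 (mesenchyme-, pulp-, follicle-, endothelium-, macrophage- and B-like), and 0 to 9 and 30 to 127 for the endothelium-like and macrophage-like differences. Several alternatives were added after seeing the data (Xist cells, Scrublet scores, thinning and clustering choices within sub-classes).

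The replicate numbers are shared between genotypes, but the labels do not say what they mark. Deviations from group means correlated at 0.444 to 0.789 within pairs. With the number as a replicate block, 160, 416, 72, 1, 108, 164 and 128 genes were called (order as above, epithelium-like left out). The genes tested in these classes were 15281, 12454, 12584, 11029, 11194, 10986 and 7284. In that fit the edgeR adjusted p of Ifitm1 was 0.00219 in mesenchyme-like, 2.92e-05 in pulp-like and 0.0229 in macrophage-like cells, and that of Ifitm3 was 0.00654 in endothelium-like and 0.00139 in macrophage-like cells.

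The estimates that reversed outside leaving out a library were as follows. Ifitm5 in pulp-like cells was -0.031 with the block. In odontoblast-like cells Ifitm1 was 0.0089 with interferon genes in clustering and 0.33 thinned, Ifitm2 was 0.017 without the filter, 0.0012 with the block, 0.046 with interferon genes in clustering, 0.066 at a resolution of 0.5 and 0.035 thinned, and Ifitm5 was 0.017 at that resolution and 0.18 thinned. Ifitm1 in epithelium-like cells was -0.012 with DESeq2 size factors and -0.0054 in DESeq2. The cause was not tested.

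Leaving out a library moved Ifitm1 from -2.71 to 0.91 in mesenchyme-like, -1.07 to 0.62 in follicle-like, -0.68 to 0.40 in odontoblast-like, -1.20 to 0.19 in endothelium-like and -1.66 to 2.09 in epithelium-like cells, and its class differences from -0.36 to 1.17 (endothelium-like) and -1.69 to 0.14 (macrophage-like). Ifitm2 ran from -0.30 to 0.20, -0.35 to 0.13, -0.039 to 0.23, -0.21 to 0.23 and -0.11 to 1.49 (mesenchyme-, pulp-, follicle-, odontoblast- and epithelium-like). Ifitm3 ran from -0.36 to 0.88, -0.57 to 0.53 and -0.97 to 1.75 (mesenchyme-, pulp- and B-like), Ifitm5 from -0.42 to 0.91, -0.42 to 0.30 and -0.52 to 0.16 (mesenchyme-, pulp- and odontoblast-like), and Ifitm10 from -0.95 to 0.60 in epithelium-like cells. Ifitm3 stayed above 0 in follicle-like (0.48 to 1.07), endothelium-like (0.66 to 1.44) and macrophage-like cells (0.40 to 1.97), and Ifitm1 below 0 in pulp-like (-2.07 to -0.38) and macrophage-like cells (-2.76 to -0.63).

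Of the levels, the odontoblast-like to pulp-like log2 ratio with cells chosen one by one was -2.74 for Ifitm1, -1.18 for Ifitm2 and -2.56 for Ifitm3, and thinning gave 6.16 CPM for Ifitm10 in mesenchyme-like and 46.4 CPM for Ifitm2 in B-like cells. Without the filter Ifitm3 in endothelium-like (adjusted p = 0.0227), Ifitm1 in macrophage-like (0.0328) and Ifitm10 in follicle-like cells (0.0318) were called in edgeR. In those fits 185 of 18325, 133 of 18250 and 133 of 19814 genes were called, in the same order of classes. The estimate of Ifitm1 in macrophage-like cells was -2.76 without Din-KO replicate 1, and its macrophage-like difference was -1.69 without WT replicate 1. Each of these fits leaves a single library in 1 genotype. Depth limits Ifitm5 outside odontoblast-like cells and Ifitm10 everywhere.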

Other observations

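Ifitm6, a family gene outside the members, belonged to neutrophil-like cells, at 1315 ± 691 CPM (SD, n = 4 libraries) with the libraries between 651 and 2220 CPM. Monocyte or dendritic-like cells had 131 ± 60.5 CPM and the mesenchyme-like cells 0.69 ± 0.58 CPM. The fewest neutrophil-like cells in a library were 18, too few for a genotype test. Ifitm7 had 7 UMIs in all kept cells.

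Monocyte or dendritic-like and perivascular-like cells, which were likewise too few to test, had Ifitm3 at 1819 ± 405 and 1098 ± 416 CPM, the former above the endothelium-like mean. Perivascular-like cells had Ifitm1 at 146 ± 94.3 CPM.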
